A study of Homo sapiens with 4 samples.

Results

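The genes of the Hippo pathway and those switched on by its co-activators YAP and TAZ were followed in Hs578T cells depleted of the talin-1 transcript. The set is a list of 38 genes taken by symbol, with no threshold on a measured value: 21 genes of the pathway core, from YAP1 to VGLL4, and 17 target genes, from CCN1 to GADD45B. Of the 60721 genes in the count table, 16137 passed the filter on low counts and were tested. They include 37 of the 38 members, namely 20 of 21 core genes and all 17 targets, and the member below the filter was AMOT. Hs578T is an established human breast carcinoma line. All cells were transfected with GFP together with 1.6 µM of RNA, which was a non-targeting control siRNA (SCR, 2 libraries) or an siRNA against TLN1 (siTLN1, 2 libraries), and polyA RNA was collected 48 h later. Each group holds 2 biological replicates of 1 cell line, and whether the TLN1 siRNA was a single sequence or a pool is not given in the sources used here.

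The Hippo pathway is a kinase chain that holds back cell growth. The kinases MST1 and MST2 (genes STK4 and STK3), with the scaffold SAV1, activate LATS1 and LATS2, which with MOB1 proteins phosphorylate YAP and TAZ (genes YAP1 and WWTR1) and so keep them out of the nucleus. Unphosphorylated YAP and TAZ enter the nucleus, bind the TEAD transcription factors and raise targets such as CCN1, CCN2 and ANKRD1. Cell spreading, tension on the actin cytoskeleton and adhesion to the matrix act on this switch, mostly at the level of the proteins, which transcript counts do not show. Talin-1 links integrins to actin at those adhesions.

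The libraries held between 31854322 and 46353297 counts. Levels are given as CPM, which are counts brought to a common library size with TMM scaling. The libraries are called a and b within each group after the number in the count table's column names, and what that number marks is not stated. TLN1 stood at 868 and 874 CPM in SCR and at 51.9 and 44.8 CPM in siTLN1, a log2 fold change of -4.17 (SE 0.11, adjusted p = 3.89e-13 in edgeR's quasi-likelihood test). Mesenchymal markers were present, with 7 of 7 at 1 CPM or more in every library. The source is labelled as epithelial, yet of 7 epithelial or luminal markers 2 reached that level (KRT8 and KRT18), GRHL2 was at 0 counts in every library and EPCAM did not exceed 0.144 CPM. The summed level of those 7 genes was 122 and 152 CPM in SCR and 131 and 142 CPM in siTLN1. Of 4 immune markers none reached 1 CPM, CD3E was at 0, and the summed level was 0.718 to 0.912 CPM in SCR and 0.659 to 0.851 CPM in siTLN1. Of 4 endothelial markers PECAM1 and KDR reached it, with sums of 5.34 to 6.17 CPM in SCR and 4.62 to 5.06 CPM in siTLN1. P-values describe the spread between these samples only.

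Depletion of TLN1 left most of the Hippo transcripts close to their control level: 2 of the 37 tested members passed the threshold of adjusted p under 0.05, TEAD4 with a lower level and ANKRD1 with a higher one. That is 5.41% of the members, beside 6.07% of all tested genes, of which 2.3% were higher and 3.77% lower. In the core 1 of 20 passed (5%) and among the targets 1 of 17 (5.88%), so the share of members called was near the background. The median log2 fold change was 0.07 in the core and 0.06 in the targets, beside 0.00327 over all tested genes. The core median turned to -0.07 without SCR library b and to -0.03 without siTLN1 library a. The median size of the change, without sign, was 0.13 in the members and 0.16 over all genes. For 35 of the 37 members, the 95% interval of the fold change lay within 1.5-fold of no change in either direction, and the exceptions were TEAD4 and ANKRD1.

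**Figure D1:**
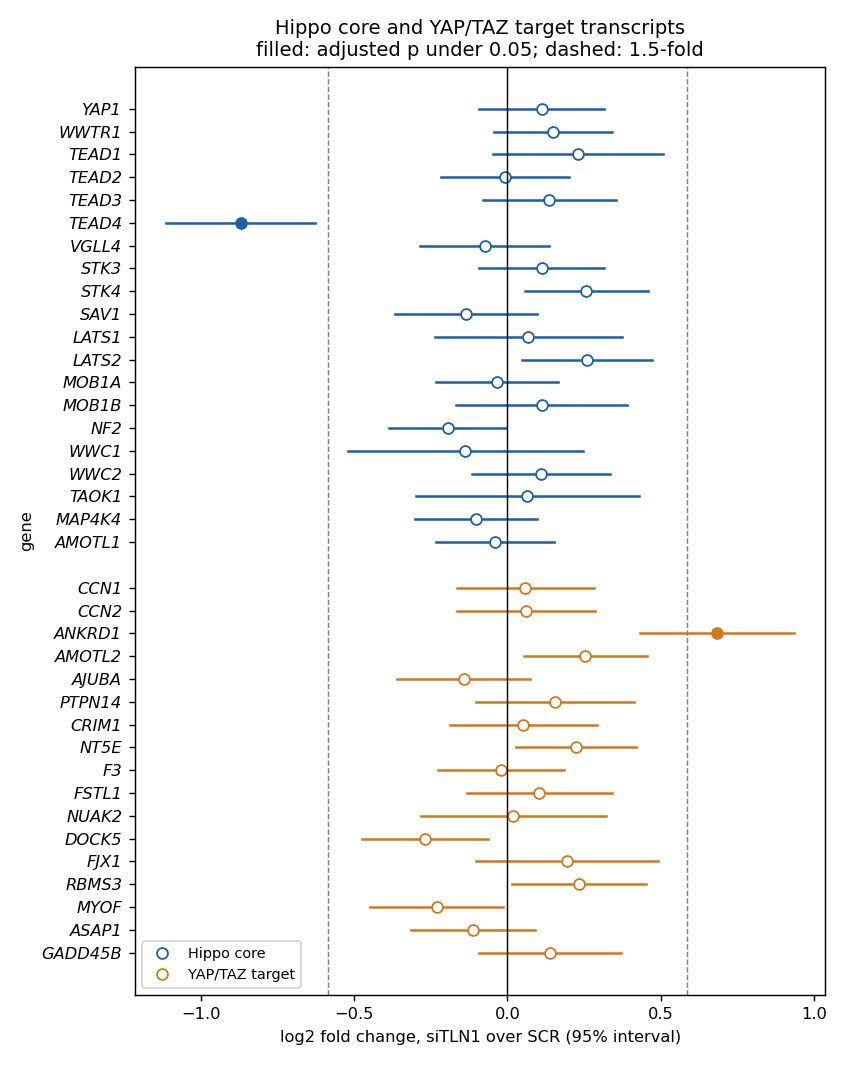
Log2 fold change of siTLN1 against SCR for each of the 37 tested members, with its 95% interval, core genes apart from targets. Filled points have an adjusted p under 0.05 and dashed lines mark 1.5-fold; TEAD4 at -0.87 and ANKRD1 at 0.68 are the filled points.

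At an unadjusted p under 0.05 in edgeR's test, 4 of 20 core genes and 6 of 17 targets differed, 10 of 37 members in all. Over all tested genes 3196 of 16137 (19.8%) did. The share in the targets was above that background, and the difference was not tested. The libraries of the groups did not overlap for 17 members (45.9%), 9 of them higher and 8 lower in siTLN1. Over all tested genes this held for 48.4%, with 23.9% higher and 24.6% lower. With 2 libraries a group, an exact two-sided permutation test of a single value cannot go below p = 0.33, so the calls rest on the spread shared across genes in edgeR.

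**Figure D2:**
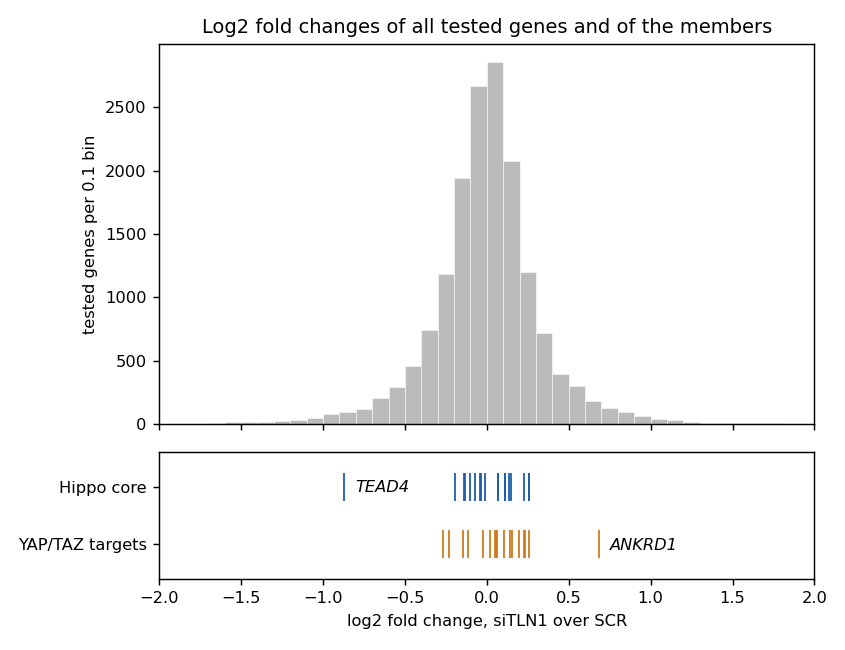
Number of tested genes by log2 fold change of siTLN1 against SCR (histogram), with a tick for each tested member; 23 genes beyond 2 in either direction are not drawn. The members lie in the central mass of genes apart from TEAD4 and ANKRD1.

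The co-activators come first in the chain's output. YAP1 (ENSG00000137693.14, chr11:102110447-102233424, plus strand, GRCh38) stood at 211 and 187 CPM in SCR and at 223 and 207 CPM in siTLN1. The ranges of the groups overlap. The log2 fold change was 0.11 (SE 0.10, 95% interval -0.093 to 0.32, adjusted p = 0.586). WWTR1, which encodes TAZ, stood at 179 and 170 CPM in SCR and at 195 and 192 CPM in siTLN1. Both siTLN1 libraries lie above both SCR libraries, but the log2 fold change of 0.15 (SE 0.09, 95% interval -0.042 to 0.34) did not pass (adjusted p = 0.394). Per kilobase of exon, YAP1 transcripts were the more abundant of the pair in every library, with YAP1 to WWTR1 ratios of RPKM (CPM per kilobase of exon) of 1.57 and 1.46 in SCR and 1.52 and 1.44 in siTLN1. Exons of other genes on the opposite strand cover 10.1% of the exon bases of YAP1 and 9.70% of those of WWTR1, and counting did not use strand.

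The TEAD factors give YAP and TAZ their DNA binding, and TEAD4 was the member that fell. TEAD4 (ENSG00000197905.9, chr12:2959330-3040676, plus strand) had 756 and 884 counts in SCR and 451 and 680 counts in siTLN1. Scaled for depth, these are 23.8 and 25.4 CPM in SCR (24.6 ± 1.13, SD, n = 2) and 12.4 and 14.5 CPM in siTLN1 (13.4 ± 1.47, SD, n = 2). Both siTLN1 libraries lie below both SCR libraries. TEAD4 fell to 0.547 of its SCR level, a log2 fold change of -0.87 (SE 0.12, 95% interval -1.11 to -0.63, adjusted p = 0.000211 in edgeR's quasi-likelihood test). In these bulk libraries, fewer cells with the transcript and less transcript per cell cannot be told apart. No annotated exon of another gene overlaps its exons.

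None of the other TEAD genes passed. TEAD1 stood at 250 and 192 CPM in SCR and at 282 and 237 CPM in siTLN1, and the groups overlap. Its log2 fold change was 0.23 (SE 0.13, 95% interval -0.047 to 0.51, edgeR adjusted p = 0.354). Library a was above library b in both groups, and without SCR library a the log2 fold change of TEAD1 was 0.44 with an adjusted p of 0.0233. TEAD2 was nearly level, at 38.1 and 40.7 CPM in SCR and 37.8 and 40.5 CPM in siTLN1. The 95% interval of its log2 fold change ran from -0.22 to 0.20 (adjusted p = 0.98). TEAD3 stood at 53.4 and 63.6 CPM in SCR and at 63.6 and 65.01 CPM in siTLN1, with a log2 fold change of 0.14 (SE 0.10, adjusted p = 0.513).

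The 4 TEAD transcripts were also compared with each other per kilobase of exon. Their summed level was 64.2 and 63.6 RPKM in SCR and 65.3 and 63.4 RPKM in siTLN1, so the sums overlap between groups. TEAD4 made up 16.3% and 17.5% of that sum in SCR and 8.33% and 10.0% in siTLN1. TEAD1 made up 36.5% and 28.2% in SCR and 40.3% and 34.9% in siTLN1, and TEAD3 27.3% and 32.8% in SCR and 31.9% and 33.6% in siTLN1. TEAD4 had the lowest level of the 4 in every library. These shares were not tested, and those of TEAD1 and TEAD3 overlap between groups.

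**Figure D3:**
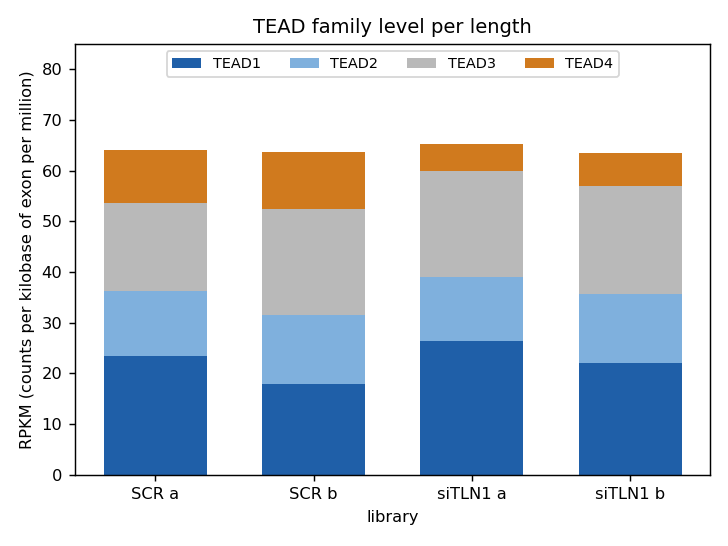
Level of TEAD1 to TEAD4 in each library, in RPKM, stacked. The column heights stay between 63.4 and 65.3 RPKM while the TEAD4 part is 10.8 RPKM on average in SCR and 5.9 RPKM in siTLN1.

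The kinases that restrain YAP and TAZ had no member past the threshold. LATS1 stood at 52.0 and 40.1 CPM in SCR and at 54.1 and 42.4 CPM in siTLN1 (log2 fold change 0.07, SE 0.14, edgeR adjusted p = 0.855), with library a above library b in each group. LATS2, itself known as a YAP target, stood at 35.8 and 34.3 CPM in SCR and at 44.1 and 39.8 CPM in siTLN1. Its groups do not overlap and it had the largest positive log2 fold change of the core, 0.26 (SE 0.10, 95% interval 0.047 to 0.47), with an unadjusted p of 0.0197 and an adjusted p of 0.151.

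STK4 (MST1) stood at 61.3 and 56.2 CPM in SCR and at 70.4 and 70.1 CPM in siTLN1, without overlap. Its log2 fold change was 0.26 (SE 0.10, 95% interval 0.056 to 0.46, edgeR adjusted p = 0.131). STK3 (MST2) stood at 54.2 and 49.7 CPM in SCR and at 55.3 and 56.9 CPM in siTLN1, with a log2 fold change of 0.11 (SE 0.10, adjusted p = 0.583). Per kilobase of exon, the ratio of STK4 to STK3 was 1.56 and 1.56 in SCR and 1.76 and 1.70 in siTLN1, while that of LATS1 to LATS2 was 0.959 and 0.773 in SCR and 0.812 and 0.704 in siTLN1. The first of these ratios does not overlap between groups and the second does, and neither was tested.

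No adaptor or upstream regulator passed. NF2, the gene of the tumour suppressor merlin that brings LATS kinases to the membrane, stood at 134 and 136 CPM in SCR and at 119 and 117 CPM in siTLN1. Its log2 fold change was -0.19 (95% interval -0.38 to -0.0044). The unadjusted p was 0.0455, and the gene did not pass (edgeR adjusted p = 0.24). MAP4K4 and TAOK1, kinases that act beside or above MST, had log2 fold changes of -0.10 and 0.07. SAV1, MOB1A, MOB1B, WWC1, WWC2, AMOTL1 and VGLL4 lay between -0.14 (WWC1) and 0.11 (MOB1B and WWC2), with edgeR adjusted p from 0.553 to 0.895. VGLL4 competes with YAP for TEAD binding, and the WWC genes encode KIBRA and its relative. Opposite-strand exons of other genes cover 25.8% of the WWC2 exon bases and 23.7% of those of VGLL4.

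AMOT, a scaffold that binds YAP and holds it at junctions and actin filaments, was near the limit of detection. It had 1 and 2 counts in SCR and 16 and 8 counts in siTLN1. The ratio of its summed counts, scaled by library size, was 6.39, with a 95% exact interval of 1.94 to 33.2 that covers counting error only. In a fit with no filter on low counts its edgeR adjusted p was 0.12, so it did not pass. Its relatives AMOTL1 and AMOTL2 were far more abundant, with 184 and 179 CPM on average in SCR.

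The classical YAP and TAZ targets CCN1 and CCN2 were abundant and similar in both groups. CCN1 (CYR61, chr1:85580761-85583950, plus strand), a secreted matrix protein, stood at 915 and 1050.3 CPM in SCR (982 ± 96, SD, n = 2) and at 1062 and 985 CPM in siTLN1 (1023 ± 54.7, SD, n = 2). CCN2 (CTGF, chr6:131948176-131951372, minus strand), its relative, stood at 876 and 1014 CPM in SCR and at 1027 and 945 CPM in siTLN1. For both genes the siTLN1 values lie within or close to the SCR range, so the groups overlap. The log2 fold change was 0.06 for each, with 95% intervals of -0.16 to 0.28 for CCN1 and -0.16 to 0.29 for CCN2 and edgeR adjusted p of 0.826 and 0.821. The ratio of CCN1 to CCN2 in CPM was 1.04 and 1.04 in SCR and 1.03 and 1.04 in siTLN1, so the pair varied together from library to library.

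ANKRD1 was the target that rose. ANKRD1 (ENSG00000148677.6, chr10:90912096-90921276, minus strand), a nuclear and sarcomeric ankyrin repeat protein, had 302 and 334 counts in SCR and 545 and 738 counts in siTLN1. Scaled for depth, these are 9.50 and 9.59 CPM in SCR (9.55 ± 0.0634, SD, n = 2) and 14.97 and 15.7 CPM in siTLN1 (15.3 ± 0.518, SD, n = 2), with no overlap. ANKRD1 rose 1.61-fold, a log2 fold change of 0.68 (SE 0.12, 95% interval 0.43 to 0.94, adjusted p = 0.00205 in edgeR's quasi-likelihood test). Per kilobase of exon it is a low-level target in these cells, at 4.82 RPKM in SCR and 7.75 RPKM in siTLN1, while CCN2 and CCN1 stood at 404 and 402 RPKM in SCR.

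**Figure D4:**
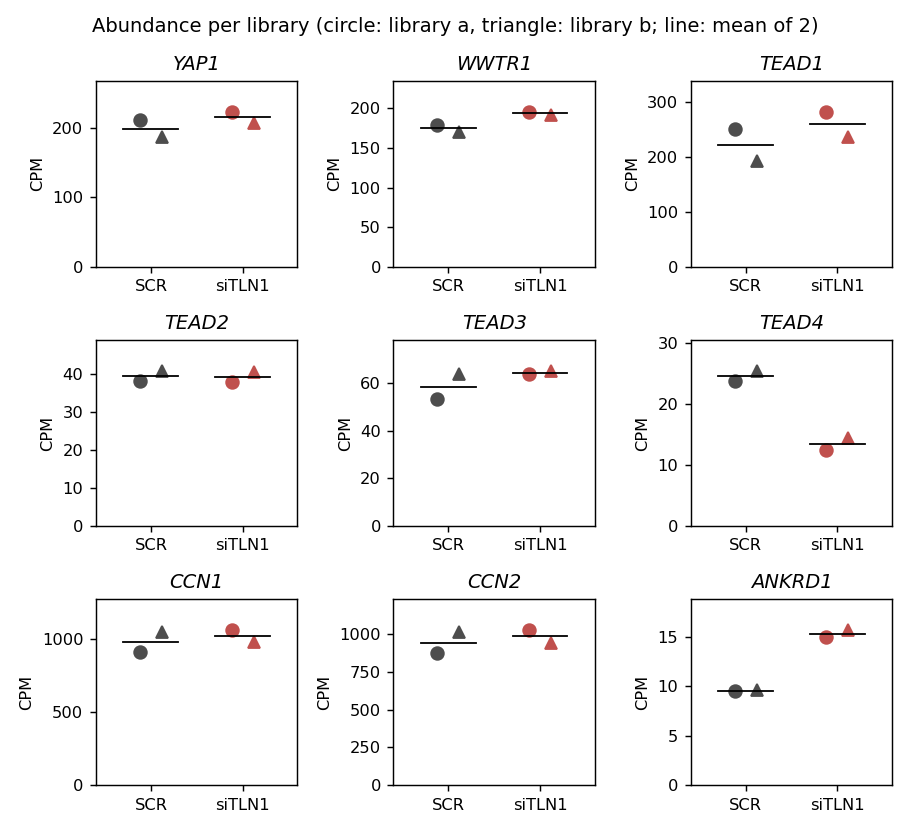
CPM in each of the 4 libraries for 9 members, with the mean of each group as a line and each axis starting at 0. TEAD4 is lower and ANKRD1 higher in both siTLN1 libraries, while the points of CCN1 and CCN2 overlap.

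TEAD factors bind the letters GGAATG, and the starts of the target genes were searched for them on both strands in RefSeq promoters (GRCh38.p14, from 250 bases before to 50 bases after each start). The word was present in 4928 of 35116 promoters of all genes (14.03%). It was present for 6 of the 13 target genes with an entry: AJUBA, AMOTL2, ANKRD1, CCN2, NUAK2 and PTPN14. These are 6 of 15 target promoters (40%), since some genes have several. In the core it was present for 3 of 18 genes (LATS2, WWC2 and YAP1) and 3 of 29 promoters (10.3%). GGAATGT, which contains GGAATG, was present in 3.46% of all promoters and among the targets in those of CCN2 and AMOTL2. TEAD1, TEAD4, STK3, CCN1, CRIM1, DOCK5 and ASAP1 are not in the promoter table. The 250 bases before the start are shown for CCN2, which did not pass, ANKRD1, which rose, and AMOTL2, which holds the word on the other strand, so that the sites can be set beside the values. Capitals mark GGAATG or its reverse complement CATTCC, and each sequence runs 5′ to 3′ on the gene's own strand, the minus strand.
CCN2 (chr6:131951373-131951622): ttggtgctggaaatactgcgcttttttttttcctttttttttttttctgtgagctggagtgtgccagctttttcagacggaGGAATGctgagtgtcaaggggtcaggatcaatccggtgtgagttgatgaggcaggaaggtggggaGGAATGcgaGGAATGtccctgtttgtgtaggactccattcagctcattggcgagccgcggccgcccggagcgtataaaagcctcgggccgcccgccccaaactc
ANKRD1 (chr10:90921088-90921337): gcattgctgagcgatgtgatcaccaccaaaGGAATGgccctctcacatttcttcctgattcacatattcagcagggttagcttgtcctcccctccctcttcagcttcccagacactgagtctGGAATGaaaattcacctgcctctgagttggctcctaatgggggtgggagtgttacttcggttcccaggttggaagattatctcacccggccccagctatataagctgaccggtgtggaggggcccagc
AMOTL2 (chr3:134374448-134374697): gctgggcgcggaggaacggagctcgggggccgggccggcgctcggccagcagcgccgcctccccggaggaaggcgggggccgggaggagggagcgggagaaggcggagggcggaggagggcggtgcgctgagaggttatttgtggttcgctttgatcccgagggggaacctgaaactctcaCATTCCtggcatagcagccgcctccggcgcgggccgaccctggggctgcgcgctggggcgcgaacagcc

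The word begins 169, 104 and 95 bases before the CCN2 start and 220 and 128 bases before the ANKRD1 start. Its reverse complement CATTCC begins 69 bases before the shown AMOTL2 start. The second listed AMOTL2 promoter holds the word on neither strand. These offsets are from the RefSeq starts. For ANKRD1 the gene span used for the counts reaches into the shown stretch. CCN2, with 3 matches, had a log2 fold change of 0.06, and ANKRD1, with 2, had 0.68. Whether the word bears on the fold change was not tested. A match is a stretch of letters and not a measured binding site.

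AMOTL2, a YAP-induced member of the angiomotin family that restrains YAP in turn, stood at 177 and 181 CPM in SCR and at 227 and 200 CPM in siTLN1. The groups do not overlap, with a log2 fold change of 0.25 (95% interval 0.053 to 0.46), an unadjusted p of 0.0163 and an edgeR adjusted p of 0.136. NT5E, the ecto-nucleotidase CD73, had a log2 fold change of 0.22 and RBMS3, an RNA-binding protein, one of 0.23, with adjusted p of 0.182 and 0.218 and without overlap of the groups.

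DOCK5, an activator of the GTPase RAC, had the largest negative log2 fold change among the targets. It stood at 319 and 306 CPM in SCR and at 277 and 243 CPM in siTLN1, without overlap. The log2 fold change was -0.27 (95% interval -0.47 to -0.062), with an unadjusted p of 0.0139 and an edgeR adjusted p of 0.124. MYOF, a membrane repair protein of the ferlin family, also lay lower without overlap, at 868 and 796 CPM in SCR and 753 and 665 CPM in siTLN1 (adjusted p = 0.222). None of these targets passed, in either direction.

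The remaining 9 targets lay between -0.14 (AJUBA) and 0.19 (FJX1) on the log2 scale, with edgeR adjusted p from 0.486 to 0.964. AJUBA and PTPN14 encode proteins that act back on LATS and YAP, and NUAK2 is a kinase induced by YAP. CRIM1, a transmembrane protein that binds BMPs, FSTL1, a secreted glycoprotein, and F3, the tissue factor that starts coagulation, had log2 fold changes of 0.05, 0.10 and -0.02. ASAP1, an ARF GTPase-activating protein, had -0.11 and GADD45B, a stress-induced protein, 0.14.

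Per kilobase of exon the members span a wide range in SCR. The order among the targets was CCN2 (404 ± 41.7 RPKM, SD, n = 2), CCN1 (402 ± 39.3), FSTL1 (305 ± 27.6), then MYOF at 98.0, CRIM1 at 84.96, F3 at 65.5 and NT5E at 63.2 RPKM. The lowest targets were ANKRD1 (4.82), FJX1 (3.15), NUAK2 (2.29) and RBMS3 (1.29 RPKM). The length counts all annotated exon bases of a gene, 18437 for RBMS3 and 1979 for ANKRD1, whichever transcripts are expressed. The order between genes depends on that length. CCN1 and CCN2 do not differ beyond their spread. In the core MAP4K4 was highest (40.4 ± 1.49 RPKM), followed by YAP1 (31.5 ± 2.75), MOB1A (22.2), WWTR1 (20.8 ± 0.784) and TEAD1 (20.7). WWTR1 and TEAD1 are neighbours whose levels are within their spread. LATS1, LATS2, STK3 and STK4 lay between 4.12 and 6.43 RPKM, and WWC1 was lowest at 0.315 RPKM.

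**Figure D5:**
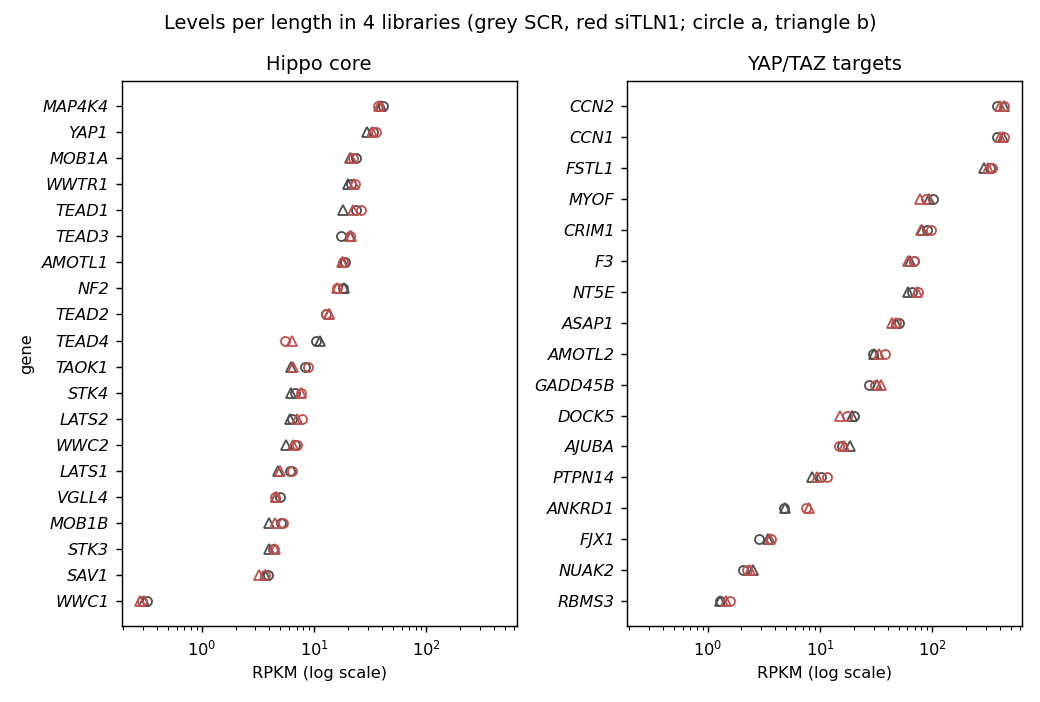
Level of each tested member in the 4 libraries, in RPKM on a log axis, in order of the SCR mean within core and targets. CCN2, CCN1 and FSTL1 lead the targets at 404, 402 and 305 RPKM, and WWC1 is the lowest core gene at 0.315 RPKM.

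Differences between replicates set single libraries against each other, while the fold changes set 2 libraries against 2. Their sizes do not compare directly. The median difference between libraries a and b, without sign, was 0.13 in SCR and 0.12 in siTLN1 over the members on the log2 scale, beside 0.15 and 0.14 over all genes. Library a was above library b in both groups for 22 of 37 members and below it in both for 7. Over all genes with counts in every library this held for 5060 and 5184 of 16134, a near even split that the members do not share, and the difference was not tested. TAOK1 differed by 0.42 in SCR and 0.45 in siTLN1, LATS1 by 0.38 and 0.35, and TEAD1 by 0.38 and 0.25, each with a above b. CCN1 and CCN2 had opposite signs in the groups, with a minus b of -0.20 and -0.21 in SCR and 0.11 and 0.12 in siTLN1.

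Other genes of the pathway were taken from 2 further lists. Of 30 tested Hippo genes outside the members, 2 passed (6.67%), 1 in each direction, near the 6.07% of all tested genes. Their median log2 fold change was -0.02. STK38L (NDR2), a kinase related to LATS, fell from 30.4 and 27.9 CPM in SCR to 18.7 and 19.0 CPM in siTLN1 (log2 fold change -0.63, SE 0.10, edgeR adjusted p = 0.00153). MAP4K3 rose from 33.1 and 29.7 CPM to 42.0 and 38.6 CPM (log2 fold change 0.36, adjusted p = 0.048). That call was lost with no filter (adjusted p = 0.0841), with DESeq2 (0.0581) and without SCR library b (0.228), siTLN1 library a (0.385) or siTLN1 library b (0.0676).

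Of 15 further YAP and TAZ targets tested, 3 passed (20%), 2 higher and 1 lower, beside 6.07% of all tested genes (2.3% higher and 3.77% lower). The list was chosen with earlier results of these data known, so its share above the background is a description and not a test. The median log2 fold change was -0.05. EDN1, the gene of the vasoconstrictor endothelin-1, rose from 59.3 and 59.6 CPM in SCR to 117 and 98.2 CPM in siTLN1 (log2 fold change 0.85, edgeR adjusted p = 7.73e-05). TGFB2, a TGF-beta ligand, fell from 178 and 185 CPM to 142 and 139.8 CPM (log2 fold change -0.37, SE 0.09, adjusted p = 0.0233). Exons of another gene on the same strand share 22.7% of its exon bases. The TGFB2 call was lost with no filter (adjusted p = 0.0526) and without SCR library b (0.101), siTLN1 library a (0.164) or siTLN1 library b (0.113).

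A 7-base word, GACAACA, marks genes that were more often lower in siTLN1 in these data, and was therefore looked up in the members. It was taken from earlier work on the same libraries, so its relation to the fold change is a description. Of 948 genes with the word in the 3′ UTR (GENCODE 29, 1 transcript a gene, UTRs of at least 100 bases), 16.8% were called lower and 2.00% higher. Of 11039 genes without it, 3.48% were called lower and 2.63% higher. TLN1 was left out of this comparison, and the genes were not matched for UTR length. Among the 37 tested members, WWTR1, AJUBA, PTPN14 and DOCK5 hold the word in the 3′ UTR. None of these 4 passed in the fit without a block, though DOCK5 was called lower with the replicate block. They are too few to set beside the shares over all genes. Another 4 members, YAP1, TAOK1, MAP4K4 and MYOF, hold it in the coding sequence only. TEAD4 and ANKRD1 are among the 29 members without the word in the 3′ UTR or the coding sequence of the transcript used, and no other coding transcript of these 2 genes holds it in the 3′ UTR. The 29 also include MOB1B and RBMS3, each with 1 other coding transcript that holds it there, and VGLL4 and GADD45B, whose UTRs of 80 and 23 bases are under the minimum. TGFB2 holds it in the 3′ UTR, while EDN1, STK38L and MAP4K3 do not.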

How the data were processed

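Raw counts per gene were deposited by the authors, and the file headers give featureCounts 2.0.0, read pairs, and GENCODE 33 (GRCh38). STAR 2.7.9a is named in the submitters' processing notes. No strand option was set, so reads of genes that overlap on opposite strands cannot be told apart. Exon lengths in bases, in a unit other than counts, are a column of the same deposited table. The deposited log2 CPM table held the 16137 genes that edgeR's filterByExpr keeps (minimum count 10, minimum total count 15). When ordered inside each group, 100% of these values matched the log2 CPM that edgeR gives with TMM, to a tolerance of 1e-06. 0 columns of per-sample values were left unmapped and 0 entries named no gene.

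Counts were TMM-scaled and compared with edgeR 4.0.16 (R 4.3.3; estimateDisp, robust glmQLFit, glmQLFTest), with Benjamini-Hochberg adjustment over the whole table, and genes with an adjusted p under 0.05 were called. A standard error here is the log2 fold change over the root of the F statistic. The 95% intervals use the fit's degrees of freedom. In simulated counts for siTLN1 against SCR (15800 genes tested), 162 of 200 genes changed 2-fold were recovered with 17 false calls, and with none changed 2 calls were made among 15834. Changes smaller than 2-fold were not simulated, so recovery at the size seen in most members is not known. RPKM is TMM-scaled CPM per kilobase of exon, with all annotated exon bases of the gene as its length.

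Genes get full values in every library if they are the co-activators, TEAD factors, MST or LATS kinases, CCN1, CCN2 or ANKRD1, pass the threshold, or have the largest rise or fall of their set. The members and lists were chosen with earlier results of these data known. Values of some genes in the marker and further target lists are not reported here, though the counts and sums over those lists include them. Alternatives were RLE scaling, total counts, no filter, DESeq2 1.42.0, limma-trend (limma 3.58.1) on the deposited log2 CPM, a replicate block, and each library left out. Python 3.11.15 and matplotlib 3.10.9 served for sequences and figures.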

Additional observations from a re-analysis of the deposited data

How the results depend on the processing

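TEAD4 and ANKRD1 kept their direction and stayed past the threshold in every alternative that was run. When single libraries were left out, TEAD4 ranged between -0.99 and -0.76 on the log2 scale and ANKRD1 between 0.65 and 0.72. TLN1 did too, between -4.28 and -4.07 in those fits. In fits without 1 library the lone sample of a group is assumed to vary like the other group.

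No label states that equal replicate numbers mark a shared preparation. Differences between replicates correlated between the groups at 0.19 across genes, and 2 pairs are too few to decide on pairing. With the replicate block, limma-trend on the deposited log2 CPM called 3645 genes (22.6%), 5 core genes, 6 target genes, 7 other Hippo genes and 8 other targets. A block by the number that recurs in the count column names was chosen after seeing the data. It pairs the libraries as the replicate numbers do, with the same correlation of 0.19. Fitted in edgeR, it gave 3709 genes (23%) and 5, 6, 7 and 8. The blocked fits thus differ in method and not in pairing, so their match is no separate support. A block leaves fewer degrees of freedom per gene, so these calls rest still more on the spread shared across genes. The core genes called in both blocked fits were TEAD4, STK4, TEAD1, LATS2 and NF2. The targets were ANKRD1, DOCK5, AMOTL2, NT5E, MYOF and RBMS3.

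All calls numbered 980, and 663 with no filter, where more genes enter the adjustment. They ran from 347 (without siTLN1 library a) to 1116 with a library left out. The count of core genes then ran from 1 to 2, that of targets stayed at 1, that of other Hippo genes ran from 1 to 3 and that of other targets from 3 to 5. Other Hippo genes gave 1 call with no filter and 1 with DESeq2. Other targets gave 5 with total counts and 5 with DESeq2. The cause was not tested. The median log2 fold change with a library left out ran from -0.072 to 0.11 for the core and from 0.0034 to 0.16 for the targets.

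TEAD2 turned to 0.0047 with no filter. With a library left out, the log2 fold changes of members that changed sign ran from -0.057 to 0.041 for TEAD2, from -0.12 to 0.27 for LATS1, from -0.11 to 0.049 for MOB1A, from -0.065 to 0.31 for MOB1B, from -0.016 to 0.25 for WWC2 and from -0.17 to 0.29 for TAOK1. For targets they ran from -0.036 to 0.16 for CCN1, from -0.039 to 0.17 for CCN2, from -0.0046 to 0.31 for PTPN14, from -0.11 to 0.20 for CRIM1, from -0.11 to 0.071 for F3 and from -0.11 to 0.17 for NUAK2. With the longer word GGAATGT, 1 core gene and 2 target genes held a promoter match. Depth limits AMOT, whose SCR libraries held 3 counts in all. It also bears on WWC1, with 103 to 132 counts a library and an SE of 0.18.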
